A study of Saccharomyces cerevisiae with 54 samples.

Results

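Peaks of acetylated histone H3 were compared directly between 2 deletion mutants of *Saccharomyces cerevisiae*: *hda1∆* (strain YTK113, genotype hda1-/-) and *tup1∆* (strain YTK202, genotype tup1-/-). The comparison rests on 4 of the 54 samples of the series, 2 libraries per mutant, chosen by the labelled antibody, genotype and set without spike-in. A peak list was analysed for 30 of the 54 samples. The question is which coding regions and promoters carried an H3 acetylation peak in one mutant and none in the other. All cells, the 2 wild-type H3 acetylation libraries (strain YSB787) included, were grown in rich medium with 2% glucose at 30 °C and immunoprecipitated with the same antibody against acetylated H3. Each mutant is a single strain lacking 1 gene in every cell, and the study calls the libraries of a strain independent ChIP-seq experiments without saying whether the cultures were separate, so p-values measure the spread between these libraries. Other samples used here measured acetylated H4 in the same 3 strains and the binding of myc-tagged Hda1.

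Hda1 is the catalytic subunit of Hda1C, a histone deacetylase complex that removes acetyl groups from the tails of core histones. Tup1 with Cyc8 forms a general corepressor, brought to promoters by DNA-binding repressors such as Mig1 and Nrg1 at glucose-repressed genes, Rox1 at hypoxic genes and Rfx1 (Crt1) at DNA damage genes. Tup1-Cyc8 is known to work through Hda1C and other deacetylases, so genes under this corepressor can be acetylated in the absence of either protein.

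For every library, the share of each of 6002 nuclear protein-coding regions, and of the 400 bp upstream of each start codon (called promoters here), that lay under peaks was computed. This coverage, in percent, records where a peak was called and not how high it was, and the read depth behind the lists is unknown. The *hda1∆* libraries held 2717 and 2777 peaks over 3131883 and 3152437 bp, and the *tup1∆* libraries 2841 and 2788 peaks over 3131542 and 2874686 bp, so the second *tup1∆* library was the least covered of these 4. Libraries of one mutant shared 82.7% to 83.8% of their combined covered length, and libraries of different mutants 71.1% to 72.8%. The mean coverage of all coding regions was 35.1% and 35.7% in *hda1∆* against 34.6% and 32.0% in *tup1∆*, and that of all promoters 43.2% and 43.0% against 46.4% and 43.1%. The means were not shown to differ between the mutants (exact permutation test over libraries, two-sided, p = 0.33 and 0.67, where 0.33 is the smallest p that 2 libraries against 2 allow).

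The genotypes were checked at the genes that were removed. The *HDA1* coding region was untouched by H3 acetylation peaks in the *hda1∆* libraries, with 9.62% and 8.91% coverage in *tup1∆*, and 9.81% and 12.4% in wild type. No H3 acetylation peak lay on the *TUP1* coding region or promoter in any of these 6 libraries, so *TUP1* checks nothing there. In the H4 acetylation libraries, the *HDA1* coding region was at 0 in all 4 *hda1∆* libraries and between 14.7% and 19.1% in wild type, and the *TUP1* coding region was at 0 in all 4 *tup1∆* libraries and between 2.66% and 7.28% in wild type.

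Most regions were alike in both mutants. At least 10% of 2880 coding regions and of 2908 promoters was covered in all 4 libraries, and 1666 coding regions and 1839 promoters were touched by no peak in any. A region was said to carry a peak in 1 mutant only when at least 10% of it was covered in both libraries of that mutant and no peak touched it in either library of the other. Of the 6002 coding regions, 112 (1.87%) carried a peak in *hda1∆* only and 134 (2.23%) in *tup1∆* only, together 246 (4.1%). Of the promoters, 71 (1.18%) did so in *hda1∆* only and 141 (2.35%) in *tup1∆* only, together 212 (3.53%). The same pattern between 1 library and another, at least 10% in the one and none in the other, was seen at 188 to 312 coding regions in favour of *hda1∆* and at 216 to 291 in favour of *tup1∆*. Between replicates of a mutant it was seen at 63 to 209 coding regions, a range that overlapped with the one in favour of *hda1∆* and lay below the one in favour of *tup1∆*. For promoters the ranges were 173 to 249 in favour of *hda1∆* and 277 to 374 in favour of *tup1∆*. Between replicates it was 105 to 246 promoters, which again overlapped with the range in favour of *hda1∆* only. Just inside the threshold, the lower library of an *hda1∆*-only coding region had 10.02% and of a *tup1∆*-only one 10.2%, and just outside it 9.92% and 9.69%. A further 47 and 44 coding regions and 26 and 45 promoters were touched in both libraries of *hda1∆* or *tup1∆*, respectively, and untouched in the other mutant, but stayed under the threshold.

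Leaving out a library takes a condition away from the rule, so these counts could only stay or rise, and the direction of change was fixed in advance. Without *tup1∆* replicate 1, 214 coding regions carried a peak in *hda1∆* only, and without *hda1∆* replicate 1 it was 179. Without *tup1∆* replicate 2, 209 coding regions were *tup1∆*-only. For promoters, *hda1∆*-only counts of 121, 130, 160 and 111 were found without *hda1∆* replicate 1, *hda1∆* replicate 2, *tup1∆* replicate 1 and *tup1∆* replicate 2. The *tup1∆*-only promoters numbered 217 without *hda1∆* replicate 2 and 253 without *tup1∆* replicate 2. When the peaks of every library were taken in order of q-value up to the covered length of the least covered one, 2874686 bp, the coding regions numbered 76 in *hda1∆* only and 196 in *tup1∆* only.

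Coverage was also tested across all regions with limma, a linear model with moderated variances, after leaving out regions with equal coverage in the 4 libraries. Of 3647 coding regions, 203 (5.57%) had more coverage in *hda1∆* and 130 (3.56%) more in *tup1∆* at an adjusted p under 0.05. At equal covered length, the limma counts were 168 and 170, so the excess on the *hda1∆* side was not seen there. Leaving out a library moved the *hda1∆* count to 53 (without *hda1∆* replicate 1), 22 (without *hda1∆* replicate 2) or 111 (without *tup1∆* replicate 2), and the *tup1∆* count to 26 or 12 (without *hda1∆* replicate 1 or 2). Of 2700 promoters tested, 83 (3.07%) had more coverage in *hda1∆* and 148 (5.48%) more in *tup1∆*. Without *tup1∆* replicate 1 or 2, the promoter counts were 239 or 159 for *hda1∆* and 254 or 330 for *tup1∆*. By a margin instead, with both libraries of one mutant at least 10 points above both of the other, 460 coding regions (7.66%) had more coverage in *hda1∆* and 262 (4.37%) in *tup1∆*, and of the promoters 264 (4.4%) and 392 (6.53%). Among the regions with a peak in 1 mutant only, the limma test was passed by 80 of 112 and 92 of 134 coding regions and by 36 of 71 and 80 of 141 promoters. The values tested are those that chose these regions. These passes, and the adjusted p-values given for members below, are therefore a description and no separate support.

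Coding regions with a peak in *hda1∆* only were covered over a median of 35.3% of their length, and 30 of the 112 over at least 50% in both libraries. They held genes of ribonucleotide reduction, hypoxia, sugar use and meiosis that are known targets of Tup1-Cyc8 or of its partner repressors. *RNR2*, the small subunit of ribonucleotide reductase, was covered at 100% and 97.9% in *hda1∆* and at 0% in both *tup1∆* libraries and in wild type (difference 99.0 points, SE 1.84; limma, adjusted p = 0.0026). *RNR3*, the damage-inducible large subunit, was covered at 42.3% and 52.3% in *hda1∆* and at 0% in the other 4 libraries (adjusted p = 0.0289, limma). These values chose the genes, and the wild-type libraries, which did not, had no peak at either. Among hypoxic genes, *TIR1*, a cell wall mannoprotein made without oxygen, stood at 100% in both *hda1∆* libraries, and *HEM13*, coproporphyrinogen oxidase of heme synthesis, at 60.4% and 71.4%, with no peak in *tup1∆* or wild type (adjusted p = 0.0022 and 0.02, limma). *SUT1*, a transcription factor for sterol uptake, stood at 44.8% and 44.0% in *hda1∆* and at 28.7% and 32.1% in wild type.

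*IME1*, which starts the meiotic programme, was covered at 100% in both *hda1∆* libraries and at 0% in *tup1∆* and wild type, and the stretch covered only in *hda1∆* there spanned 1810 bp on chromosome X over *FIP1* and *IME1* (604014 to 605823 in the coordinates of the peak lists, whose build the sources name differently). *DIT1*, needed for the spore wall, had 61.3% and 59.8% in *hda1∆* and 27.9% and 25.8% in wild type. The longest stretch covered in both *hda1∆* libraries and neither *tup1∆* library, 2069 bp, lay over *IMA4* on chromosome X (16796 to 18864). *IMA4* and its near-identical relative *IMA3*, isomaltases that split sugar dimers, stood at 100% and 98.4% and at 95.0% and 100% in *hda1∆*. Reads from such copies can be shared between them, so their values are uncertain. Other sugar genes had lower coverage. *HXT1*, a glucose transporter for high glucose, had 34.2% and 28.1% in *hda1∆* and 18.0% in 1 wild-type library (adjusted p = 0.0296, limma). *HXK1*, hexokinase 1, had 23.9% and 32.1%, and *HXT2*, a glucose transporter for low glucose, 30.2% and 16.9%, and neither passed the test (limma, adjusted p = 0.0502 and 0.135).

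Among the 10 coding regions with the largest differences, 3 had an H3 acetylation peak in both wild-type libraries and none in *tup1∆*. *STP4*, which encodes a zinc finger protein, was covered at 100% in both *hda1∆* libraries, at 56.6% and 69.4% in wild type and at 0% in *tup1∆*. *HSP31*, a chaperone-like protein of the DJ-1 family, had 100% and 97.2% in *hda1∆*, 66.1% and 66.0% in wild type and 0% in *tup1∆*. *YGR018C*, which overlaps another gene, had 100% in *hda1∆* and 49.7% and 33.6% in wild type. The same order was seen for *NRG1*, a repressor of glucose-repressed genes that recruits Tup1-Cyc8 (40.7% and 43.5% in *hda1∆*, 39.4% and 32.6% in wild type, none in *tup1∆*; limma, adjusted p = 0.0111). *YFL051C* and *YFL019C*, open reading frames without a gene name, were at 100% in *hda1∆* and at 0% in *tup1∆* and wild type.

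**Figure D1:**
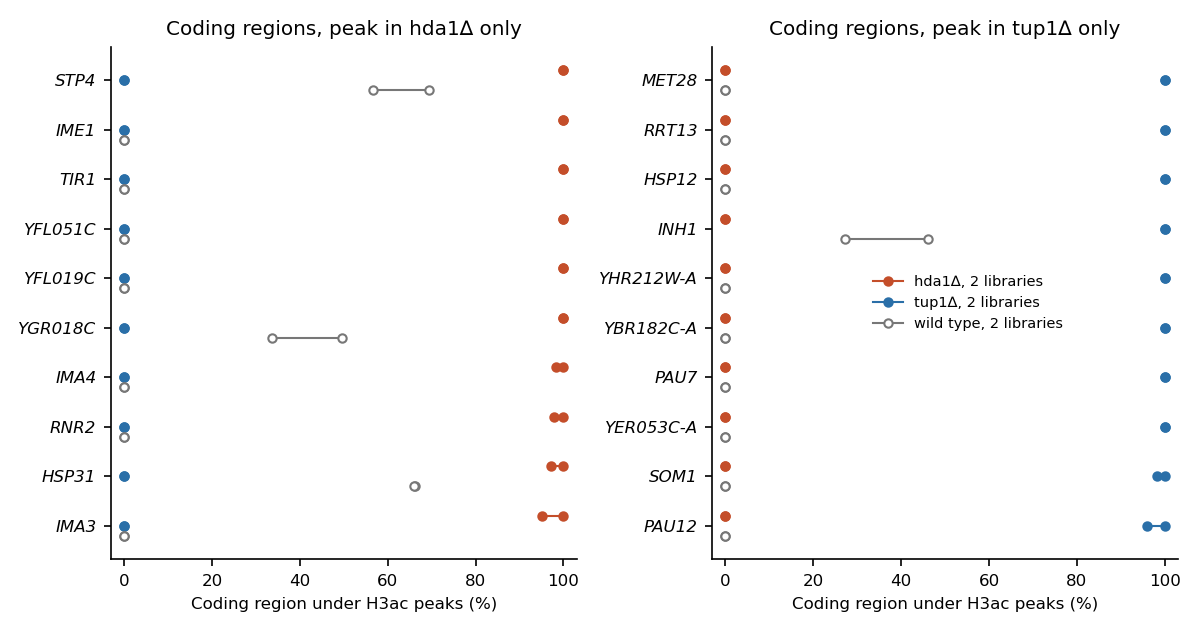
Coverage by H3 acetylation peaks (percent of the coding region, x axis) of the 10 coding regions with the largest differences in each direction, with 1 point per library and a line joining the 2 libraries of a strain. The mutant libraries sit at the opposite ends of the scale by the rule that chose the regions, while wild type (open circles) is at 0% for 7 of 10 *hda1∆*-only and 9 of 10 *tup1∆*-only regions.

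Coding regions with a peak in *tup1∆* only were covered over a median of 32.6%, and 34 of the 134 over at least 50% in both libraries. The most covered were single genes of various roles. *HSP12*, a membrane-associated protein made under stress, was covered at 100% in both *tup1∆* libraries and at 0% in both *hda1∆* and both wild-type libraries (difference 100 points, SE 1.63; limma, adjusted p = 0.0022). *MET28*, a transcription factor of sulfur amino acid synthesis, and *RRT13* had these same values. *THI4*, which makes the thiazole part of thiamine and was picked after its values were seen, had 97.5% and 91.6% in *tup1∆* (adjusted p = 0.0059, limma) and 0% elsewhere. *CYC7*, the hypoxic form of cytochrome c, had 100% and 76.6% in *tup1∆* (limma, adjusted p = 0.0371) and 0% elsewhere. Wild type, which the rule did not use, had no peak at any of these 5 genes.

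The seripauperins *PAU7* and *PAU12*, members of a subtelomeric family of cell wall proteins, stood at 100% and 100%, and at 95.9% and 100%, in the *tup1∆* libraries. Their sequences are repeated, so reads may have been placed on the wrong copy. *SOM1*, of the mitochondrial inner membrane peptidase, was covered at 100% and 98.2%. *YBR182C-A*, *YHR212W-A* and *YER053C-A*, without a gene name, were at 100% in *tup1∆* and 0% in the other libraries. *INH1*, an inhibitor of the mitochondrial ATP synthase, was the 1 gene of the 10 with wild-type coverage (27.1% and 46.1%), with 100% in *tup1∆* and no peak in *hda1∆*.

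Further *tup1∆*-only coding regions belonged to pathways that also had *hda1∆*-only members. In sugar use, *SOL4*, a 6-phosphogluconolactonase, had 76.2% and 66.0% and *MAL33*, a maltose activator, 42.5% and 50.6% in *tup1∆* (limma, adjusted p = 0.0159 and 0.0227). In iron uptake, *FET3*, the iron oxidase, had 19.0% and 18.0% in *tup1∆*, whereas *FRE2* and *FRE3*, ferric reductases, had 15.9% and 15.6% and 16.5% and 15.1% in *hda1∆* only (limma, adjusted p = 0.0287, 0.0344 and 0.0371). In phosphate use, the phosphatase *PHM8* had 42.4% and 35.4% in *tup1∆* and the acid phosphatase *PHO12* had 18.5% and 21.2% in *hda1∆* only. *PHO12* lies 8545 bp from a chromosome end, where reads may be shared between related genes, so its values are uncertain. Each of these pathways thus had members in both classes.

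Some highly expressed genes also had a peak in *tup1∆* and wild type and none in *hda1∆*. The ribosomal protein genes *RPL10* (coverage of 42.3% and 46.4% in *tup1∆*, 40.5% and 37.2% in wild type) and *RPL28* (33.9% and 30.7%, 40.3% and 28.1%) were of this kind (limma, adjusted p = 0.0124 and 0.0167). *TKL1*, transketolase of the pentose phosphate pathway, had 17.8% and 18.4% in *tup1∆*, 12.3% and 11.3% in wild type and none in *hda1∆* (adjusted p = 0.0287, limma). *ADH1*, the main alcohol dehydrogenase of fermentation, had 12.3% and 10.2% in *tup1∆* and 15.3% and 19.1% in wild type, and did not pass the test (limma, adjusted p = 0.071).

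The wild-type libraries, which the rule did not use, differed between the classes. Of the 134 *tup1∆*-only coding regions, 99 (73.9%) had no H3 acetylation peak in either wild-type library and 18 (13.4%) carried one in both. Of the 112 *hda1∆*-only coding regions, 47 (42.0%) had none and 44 (39.3%) carried one in both. Among all coding regions 36.4% had none and 49.5% carried one in both. For promoters it was the same: 100 of 141 *tup1∆*-only promoters (70.9%) had no wild-type peak, against 28 of 71 *hda1∆*-only promoters (39.4%) and 39.2% of all. The share of *hda1∆*-only regions without a wild-type peak was close to that of all regions, and the share of *tup1∆*-only regions was above it. All regions include 1666 coding regions and 1839 promoters with no peak in any of the 4 mutant libraries. These could not be members, so all regions are not a like-for-like base, and closeness to it does not make the *hda1∆*-only class ordinary.

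The gain over wild type uses the mutant values that chose the members, so its excess over all regions is largely fixed by the rule and the counts are a description. Of the *tup1∆*-only coding regions, 105 of the 134 (78.4%) had at least 10 points more coverage in both *tup1∆* libraries than in both wild-type libraries, where 10.3% of all coding regions did. For the *hda1∆*-only coding regions it was 62 of 112 (55.4%) in *hda1∆*, where 11.3% of all did. A further 37 of the 112 carried the peak in wild type without that gain, so that *tup1∆* was the strain in which the peak was missing, and 16 of the 134 were of the opposite kind, with *hda1∆* missing it. Among promoters, 30 of 71 *hda1∆*-only regions exceeded wild type in *hda1∆* by that margin (6.76% of all did) and 32 carried the peak in wild type without the gain, while 107 of 141 *tup1∆*-only promoters exceeded it in *tup1∆* (9.15% of all did).

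**Figure D2:**
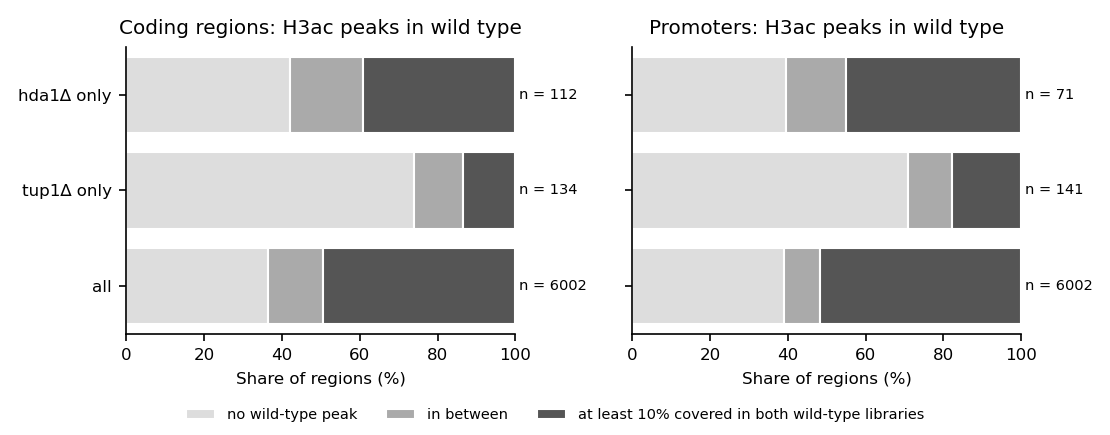
Share of regions (percent, x axis) by their H3 acetylation peaks in wild type, for regions with a peak in *hda1∆* only, in *tup1∆* only and for all 6002, with coding regions on the left and promoters on the right. The pale part (no wild-type peak) takes 73.9% and 70.9% of the *tup1∆*-only bars and 42.0% and 39.4% of the *hda1∆*-only bars.

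At promoters, the *tup1∆*-only class was led by genes at which wild type and *hda1∆* had no peak. Cell adhesion genes were among them, with 4 of 5 flocculin promoters (80%, beside 2.35% of all promoters). *FLO11*, a mucin-like adhesin, had 83.3% and 77.5% of its promoter covered in *tup1∆*, and *FLO10*, a flocculin, 77.8% and 74.0% (limma, adjusted p = 0.0085 and 0.0079). *FLO5* had 38.8% and 38.5% and *FLO9* 36.3% and 39.5%, and no library of *hda1∆* or wild type had a peak on any of these 4 promoters. *FLO5* and *FLO9* are close relatives in sequence and their values are uncertain. The promoter of *FLO1*, the fifth flocculin, was covered at 100% in both *hda1∆* libraries and at 81.3% and 67.8% in *tup1∆*, with no wild-type peak, and did not pass the test (limma, adjusted p = 0.169).

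*CYC7* and its neighbour *UTR4*, a gene of methionine salvage transcribed in the opposite direction, shared a 1303 bp stretch on chromosome V (79716 to 81018) covered only in *tup1∆*, with both promoters at 100%. The promoters of *TDA8*, *GPI11*, of GPI anchor synthesis, and *YFL015C* also stood at 100% in *tup1∆* and at 0% in the other libraries, though those of *GPI11* and *YFL015C* overlap another coding region. So did *MET2*, of methionine synthesis, and *BAT2*, a branched-chain aminotransferase, at 100% (limma, adjusted p = 0.0047 for each promoter at 100% in one mutant). *HSP12*, whose promoter window also overlaps another coding region, had 98.5% and 96.8%. Among sugar genes, *STL1*, a glycerol transporter, had 75.5% and 65.5%, *IMA5* 59.3% and 58.5%, and the hexose transporter genes *HXT8*, *HXT16* and *HXT15* 46.5% and 39.8%, 44.3% and 37.0%, and 44.8% and 31.5%. *HXT15* and *HXT16* lie beside *SOR2* and *SOR1*, genes near chromosome ends whose promoters were also *tup1∆*-only. Reads may be shared between such places, so these values are uncertain. *RFX1*, the repressor of DNA damage genes that recruits Tup1, had 68.3% and 67.8% (adjusted p = 0.0073, limma) and no wild-type peak. *INH1*, *SET3*, of a histone deacetylase complex, and *ADH1* stood at 100% in both *tup1∆* and wild type and at 0% in *hda1∆*.

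The *hda1∆*-only promoters included several that wild type carried. The ferric reductase genes *FRE2* and *FRE3* had fully covered promoters in both *hda1∆* and both wild-type libraries and no peak in *tup1∆* (limma, adjusted p = 0.0047). *DIP2*, of ribosome assembly, and *CCT3*, of a cytosolic chaperonin, shared these values. The promoter windows of *DIP2*, *CCT3*, *FIP1*, *RNR2* and *RFC1* overlap another coding region. The promoters of *FMP48*, a mitochondrial protein, *FIP1*, of mRNA polyadenylation, and *YFL019C* were at 100% in *hda1∆* and at 0% in *tup1∆* and wild type. *HXK1* had 44.3% and 49.8% (adjusted p = 0.018, limma) and *IMA4* 83.0% and 82.0%. *RNR2* had 61.0% and 36.0%, *IME1* 43.0% and 64.3%, *HEM13* 52.0% and 15.5% and *HXT1* 36.5% and 20.8%, and these 4 did not pass the test (limma, adjusted p from 0.0961 to 0.396).

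Coding regions and promoters of the same gene mostly went the same way or alone. A peak in *hda1∆* only was found in both parts of 31 genes, among them *STP4*, *RNR2*, *IME1*, *HEM13*, *HXT1*, *HXK1*, *IMA4*, *FRE2* and *FRE3*. A peak in *tup1∆* only was found in both parts of 59 genes, among them *HSP12*, *CYC7*, *INH1*, *THI4*, *PAU7*, *PAU12*, *BAT2*, *TKL1* and *ADH1*. In 2 genes, named after their values were seen, the parts disagreed: *SWE1*, a kinase that delays mitosis, and *FAF1*, of ribosome assembly, had a coding peak in *hda1∆* only and a promoter peak in *tup1∆* only. *SWE1* had 13.1% and 11.5% of the coding region in *hda1∆* and 19.3% and 16.5% of the promoter in *tup1∆*, and *FAF1* had 36.4% and 28.5%, and 28.5% and 37.0%, with a promoter window that overlaps another coding region. No gene showed the reverse. A coding peak alone was found in 79 and 75 genes and a promoter peak alone in 40 and 80 genes for *hda1∆* and *tup1∆*.

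The bases covered in 1 mutant only fell in different parts of genes. Of 290526 bp covered in both *hda1∆* libraries and neither *tup1∆* library, 72.8% lay in coding regions and 10.7% in promoters outside coding regions. Of 210297 bp covered in *tup1∆* only, 53.0% lay in coding regions and 25% in promoters. The bases covered in all 4 libraries had 60.2% and 24.6% there. Coding sequence thus held a larger share of the *hda1∆*-only bases, and a smaller share of the *tup1∆*-only bases, than of the bases common to both mutants. This difference was not tested.

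Along the member genes, coverage was highest at the 5′ end in both classes, as it was over all coding regions. Over all of them, part 1 of 10 equal parts had 50.7% and 51.6% in *hda1∆* and 53.9% and 50.1% in *tup1∆*. Part 6 had 30.6% and 30.9%, and 29.3% and 26.9%. With each coding region cut into 10 equal parts, 75.1% and 74.1% of part 1 of the *tup1∆*-only regions was covered in *tup1∆*, and 31.0% and 30.9% of part 6. The *hda1∆*-only coding regions went from 62.4% and 62.5% to 37.1% and 32.7% in *hda1∆*. Coverage in *hda1∆* then was 38.8% and 40.1% in part 10, where *tup1∆*-only regions had 29.3% and 26.6% in *tup1∆*. A peak over part 10 and not part 1, with at least 50% of the part under peaks in both libraries, was found at 31 of 112 *hda1∆*-only regions (27.7%) and 23 of 134 *tup1∆*-only regions (17.2%). Among all coding regions that carried a peak in both libraries of the mutant, 12.1% and 10.4% were of this kind.

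**Figure D3:**
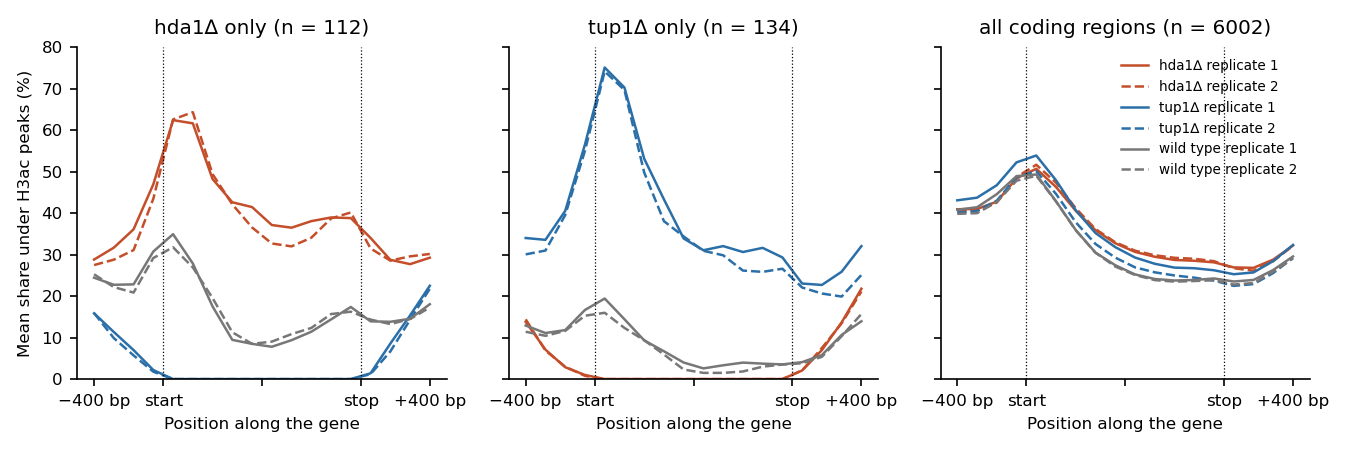
Mean share under H3 acetylation peaks (percent, y axis) from 400 bp before the start codon, in steps of 100 bp, over the coding region in 10 equal parts, to 400 bp after the stop codon, with 1 line per library, for *hda1∆*-only, *tup1∆*-only and all coding regions. The classes reach 62.4% and 62.5% (*hda1∆*) and 75.1% and 74.1% (*tup1∆*) in part 1 of the coding region, and the 0% of the other mutant inside the coding region is set by the rule.

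Acetylated H4, measured with another antibody in separate libraries, showed where the classes also differed in a readout that did not choose them. Of the 134 *tup1∆*-only coding regions, 68 (50.7%) had at least 10 points more H4 acetylation coverage in both *tup1∆* libraries than in both *hda1∆* libraries in the spike-in set, where 13.4% of all coding regions did, and 75 (56.0%) in the set without spike-in, where 15.2% did. More H4 acetylation in *hda1∆* was found at 1 of them in each set. Of the 112 *hda1∆*-only coding regions, 33 (29.5%) and 35 (31.3%) had more H4 acetylation coverage in *hda1∆*, against 5.46% and 5.38% of all, and 8 and 11 had more in *tup1∆*. For *tup1∆*-only promoters the counts in *tup1∆* were 60 (42.6%) and 89 (63.1%) of 141, against 18.7% and 22.1% of all, and none had more in *hda1∆*. For *hda1∆*-only promoters the counts in *hda1∆* were 14 (19.7%) and 17 (23.9%) of 71, against 2.62% and 1.87%. Cultures of H3 and H4 libraries are not tied by the labels. The study set acetylation of either histone against total H3. In the set without spike-in, the labels hold the same total H3 libraries for both marks, so the marks may share a control there. How far a shared control contributes was not tested.

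The mean H4 acetylation coverage of the *tup1∆*-only coding regions was 46.1% and 53.1% in *tup1∆*, 16.2% and 15.6% in *hda1∆* and 19.1% and 20.5% in wild type (spike-in set). For the *hda1∆*-only coding regions it was 32.2% and 33.6% in *hda1∆*, 17.9% and 22.1% in *tup1∆* and 40.2% and 44.4% in wild type. The order of strains was thus different: *tup1∆*-only regions had the most in *tup1∆*, with *hda1∆* a little below wild type, while *hda1∆*-only regions had the most in wild type and the least in *tup1∆*. Over all coding regions the values were 42.3% and 45.2% in *tup1∆*, 38.1% and 38.9% in *hda1∆* and 41.7% and 42.9% in wild type. A wild-type H4 acetylation peak that no *tup1∆* library touched was found at 30 of the 112 *hda1∆*-only coding regions (26.8%) in the spike-in set, at 2.18% of all coding regions and at none of the *tup1∆*-only ones.

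Named genes showed these orders one by one. *IME1* was covered by H4 acetylation at 100% in both *hda1∆* and both wild-type libraries of the spike-in set and at 0% in *tup1∆*. *TIR1* had 80.8% and 78.6% in *hda1∆*, 90.8% and 87.3% in wild type and 0% in *tup1∆*, and *RNR2* had 45.3% and 54.8%, 95.3% and 100%, and 0%. In wild type, then, these 3 coding regions carried H4 acetylation peaks and no H3 acetylation peak, although in the set without spike-in *TIR1* had 0% and 23.3% and *RNR2* 62.0% and 34.2% in wild type. *HSP12*, *PAU7* and *PAU12* were at 100% in both *tup1∆* libraries and *MET28* at 78.4% and 97.2%, and all 4 were at 0% in *hda1∆* and wild type. *FLO11* and *FLO9* had no H4 acetylation peak on the promoter in any of these 6 libraries. The promoters of *DIP2*, *RFX1* and *RFC1*, a clamp loader subunit singled out after its values were seen, which had an H3 acetylation peak in 1 mutant only, were fully covered by H4 acetylation in all of them.

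**Figure D4:**
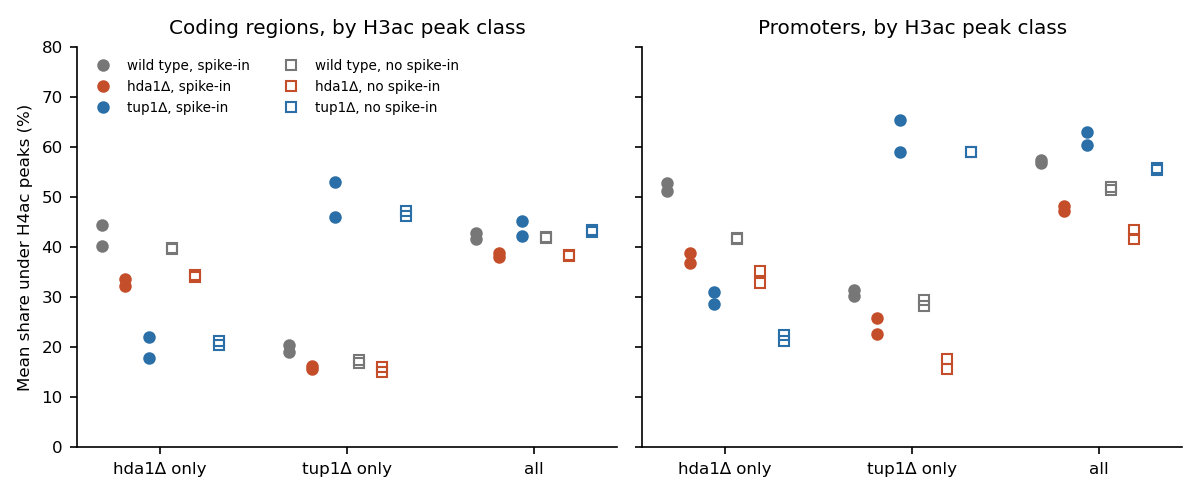
Mean share under H4 acetylation peaks (percent, y axis) of the coding regions (left) and promoters (right) with an H3 acetylation peak in *hda1∆* only, in *tup1∆* only and of all regions, with 1 point per library (filled for the spike-in set, open for the set without). In the spike-in set, *tup1∆*-only coding regions had 46.1% and 53.1% in *tup1∆* against 16.2% and 15.6% in *hda1∆*.

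Group means lay on opposite sides for many coding regions and promoters. Of 18 groups, 10 had a higher mean coding coverage in both *hda1∆* libraries than in both *tup1∆* libraries and 4 a lower one, while for promoters 2 were higher in *hda1∆* and 14 higher in *tup1∆*, with 4 and 2 groups overlapping. At equal covered length, 17 of the 18 coding and all 18 promoter differences kept their sign, the exception being the coding regions of mating genes. Over all regions the mean difference, *hda1∆* minus *tup1∆*, was 2.09 points for coding regions and −1.60 points for promoters, the same sides as most groups. Ribosomal protein genes were the largest group. Their 137 coding regions had a mean of 68.6% and 69.3% in *hda1∆*, 61.2% and 59.0% in *tup1∆* and 65.8% and 64.4% in wild type. By limma 13 of them had more coverage in *hda1∆* and 2 more in *tup1∆*, beside 5.57% and 3.56% of all coding regions tested. Their median difference was 4.70 points against 0 over all coding regions. Their promoters had 44.0% and 41.5% in *hda1∆*, 50.5% and 48.0% in *tup1∆* and 61.4% and 57.8% in wild type, with a median difference of −4.38 points against 0 over all promoters.

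Glucose-repressed carbon source genes had the same contrast. The 48 coding regions had a mean of 43.3% and 42.8% in *hda1∆*, 37.2% and 34.5% in *tup1∆* and only 13.1% and 16.3% in wild type. There were 6 *hda1∆*-only members (12.5%, beside 1.87% of all coding regions) and 2 *tup1∆*-only members (4.17%, beside 2.23%). The 6 included *IMA3* and *IMA4*, whose values are uncertain as said above, and *IMA1* of the same family. At equal covered length, the coding counts were 4 and 2. The promoters of this group had 21.1% and 20% in *hda1∆* and 31.2% and 25.1% in *tup1∆*, with 2 (4.17%, beside 1.18% of all promoters) and 3 (6.25%, beside 2.35%) such members. For 18 hexose transporter genes, coding coverage was 19.5% and 18.6% against 15.1% and 11.8%, and promoter coverage 3.32% and 3.53% against 10.3% and 9.96%, with no wild-type peak on any of these promoters. The median difference was 0 in these lists except for hexose transporter coding regions (1.66 points), so means and medians differed in these lists.

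In other groups the means differed between the mutants while the median did not: the median difference was 0 for the DNA damage and seripauperin coding regions and the chaperone and mating promoters, as over all regions. The coding regions of 20 DNA damage genes had 23.2% and 23.9% in *hda1∆* and 16.6% and 16.0% in *tup1∆*, with *RNR2*, *RNR3* and *RAD2*, a repair nuclease (11.5% and 12.8%; limma, adjusted p = 0.0562), as *hda1∆*-only and *RAD16*, of nucleotide excision repair, as *tup1∆*-only. The 24 seripauperin coding regions had 8.93% and 8.57% in *hda1∆* against 20.8% and 20.6% in *tup1∆*. Among 5 flocculin promoters, 4 were *tup1∆*-only, as given above. The promoters of 30 chaperone genes had 37.2% and 37.8% in *hda1∆* and 51.4% and 47.6% in *tup1∆*, and those of 32 mating genes 38.5% and 35.7% against 48.8% and 49.2%. Of the mating promoters, *ASG7* (36.3% and 51.8%) and *FAR1* (25.5% and 22.8%), a cell cycle inhibitor of the pheromone response, were *tup1∆*-only, and *FAR1* passed the test (limma, adjusted p = 0.0467). Hypoxic genes divided evenly, with 3 of 25 coding regions (12%) in each direction, beside 1.87% (*hda1∆*-only) and 2.23% (*tup1∆*-only) of all coding regions. Histone genes hardly differed, at 81.2% and 81.0% against 81.8% and 81.6%.

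**Figure D5:**
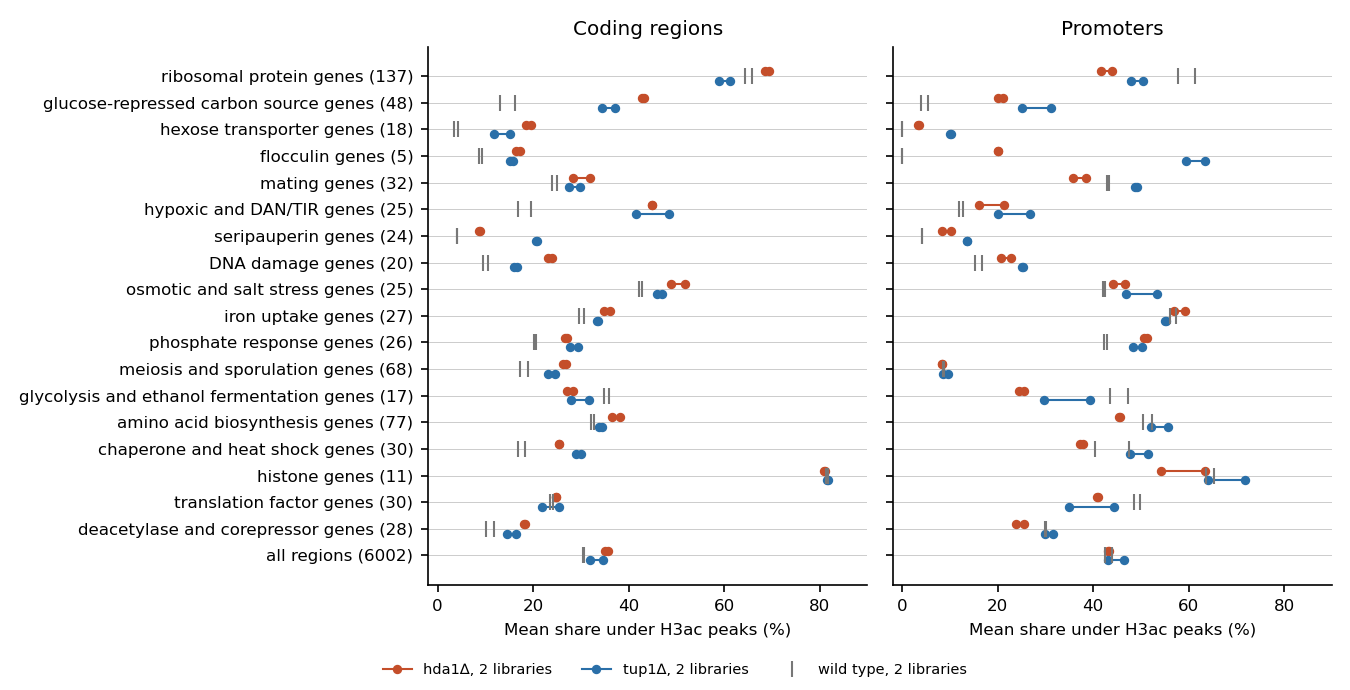
Mean share under H3 acetylation peaks (percent, x axis) of the coding regions (left) and promoters (right) of 18 gene groups and of all regions, with the number of genes in brackets, 1 point per library and bars for the wild-type libraries. Ribosomal protein coding regions sit at 68.6% and 69.3% in *hda1∆* and 61.2% and 59.0% in *tup1∆*, and their promoters at 44.0% and 41.5% against 50.5% and 48.0%.

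The remaining list members gave a similar mix. Of 77 amino acid biosynthesis genes, 4 coding regions were *tup1∆*-only and none *hda1∆*-only, beside 2.23% and 1.87% of all coding regions. These were *LYS1*, of lysine synthesis (31.5% and 34.2% in *tup1∆*), *BAT2* (16.4% and 14.6%), *LEU4* (13.2% and 13.2%) and *LEU1* (10.6% and 11.2%), both of leucine synthesis, and the first 3 passed the test (limma, adjusted p = 0.0159, 0.0402 and 0.046). *LEU1* alone had wild-type coverage, of 10.3% and 4.10%. The mean of the group lay on the other side, at 36.6% and 38.1% in *hda1∆* against 34.5% and 33.8% in *tup1∆*. By limma 3 of the 77 had more coverage in each mutant, beside 5.57% (*hda1∆*) and 3.56% (*tup1∆*) of all coding regions tested. By the margin of 10 points, 9 had more in *hda1∆* and 7 in *tup1∆*, beside 7.66% and 4.37% of all coding regions. Of the translation factors, *HYP2*, the aerobic form of eIF5A, had 82.9% and 82.5% in *tup1∆* (adjusted p = 0.0028, limma) and 50% and 0% in wild type, and *PRT1*, a subunit of eIF3, had 13.4% and 13.0% in *hda1∆* (adjusted p = 0.0461, limma). *HYP2* and *ANB1* are near-identical in their coding sequence, which makes both values uncertain. Among genes for other carbon sources, *CRC1*, a mitochondrial carnitine carrier, had 43.8% and 33.1% in *hda1∆* (adjusted p = 0.0439, limma), and *GUT1*, glycerol kinase, had 23.3% and 39.0% (adjusted p = 0.108, limma). *CRC1* was an exception in the other mark, with H4 acetylation coverage of 74.2% and 67.5% in *tup1∆* and 0% in *hda1∆* in the set without spike-in.

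At the promoters of the same lists, several more members had a peak in 1 mutant only. *HOM6*, of methionine and threonine synthesis, whose promoter window overlaps another coding region as that of *SPS4* does, had 31.3% and 29.3% in *tup1∆* and 100% and 39.3% in wild type (adjusted p = 0.028, limma). *FRE1*, a ferric reductase, had 39.0% and 41.0% (adjusted p = 0.016, limma), in contrast to *FRE2* and *FRE3* above. The sporulation genes *SPO20* and *SPS4* had 23.0% and 26.0% and 23.8% and 27.8% in *tup1∆*, while *IME1* was *hda1∆*-only. *PHO12* had 30.5% and 29.3% in *hda1∆* (adjusted p = 0.0272, limma). *MIG3*, a relative of the glucose repressor Mig1, had 23.0% and 33.0% in *hda1∆* and did not pass the test (adjusted p = 0.1, limma). *ATO2*, a putative acetate or ammonium transporter, was covered at 100% in one *tup1∆* library and 34.3% in the other (adjusted p = 0.352, limma).

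Open reading frames without a gene name made up 13 of the 112 *hda1∆*-only (11.6%) and 20 of the 134 *tup1∆*-only coding regions (14.9%), and 12.4% of all 6002. Among promoters they made up 13 of the 71 *hda1∆*-only (18.3%) and 25 of the 141 *tup1∆*-only ones (17.7%). The median coding length was 1186.5 bp and 1044 bp, against 1200 bp for all. Uninterrupted stretches of at least 500 bp covered in 1 mutant only numbered 135 for *hda1∆* and 112 for *tup1∆*. The longest in *tup1∆* was 1373 bp at *RRT13* on chromosome V (290175 to 291547), and the second longest in *hda1∆* was 1847 bp at *STP4* on chromosome IV (366606 to 368452).

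Both classes were counted by distance from the chromosome ends, and the differences between zones were not tested. Within 10 kb of a chromosome end, 11 of 127 coding regions (8.66%) carried a peak in *tup1∆* only and 3 (2.36%) in *hda1∆* only, and the mean coverage was 14.7% and 13.1% in *tup1∆*, 9.34% and 9.39% in *hda1∆* and 5.09% and 4.96% in wild type. From 10 to 25 kb the coding regions had 33.8% and 31.3% in *tup1∆* and 33.7% and 33.2% in *hda1∆*, about the same, against 16.5% and 16.2% in wild type. The promoters in that zone were *tup1∆*-only in 21 of 198 cases (10.6%) and *hda1∆*-only in 6 (3.03%). Beyond 50 kb, 1.76% and 1.94% of 5297 coding regions were *hda1∆*-only and *tup1∆*-only. Neighbouring genes were called together in some places. In a list chosen after the values were seen, 3 promoters in a row were *tup1∆*-only at *SOM1*, *HHY1* and *PCM1*, at *UTR5*, *HYP2* and *MTC7*, at *DDI3*, *SNO3* and *SNZ3*, and at *FLO5*, *YHR212W-A* and *YHR213W*, and of these 12 promoter windows 9 overlap another coding region.

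Peaks at the member regions were low ones within their libraries. The deposited fold enrichment of the highest peak touching a *hda1∆*-only coding region had a median rank at the percentile 28.4 and 30.0 of all peaks in the *hda1∆* libraries, and that of a *tup1∆*-only coding region at 34.8 and 36.4 in *tup1∆*. All coding regions with a peak had medians from 61.3 to 62.2. In the upper 50 percent of peaks were 35 and 36 of the 112, and 41 and 42 of the 134. With peaks limited to a −log10 q-value of at least 5, the original call was kept by 87 of 112 and 114 of 134 coding regions and by 59 of 71 and 122 of 141 promoters. Gene positions carry their own uncertainty, since the build of the peaks is named differently in the sources. With the gene table moved by 200 bp in either direction, 55 and 57 of these coding regions and 23 and 48 promoters kept their call both ways.

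Peaks of Hda1-myc, from a strain with tagged Hda1, covered a mean of 4.6% and 3.76% of the *hda1∆*-only coding regions in the set without spike-in and 10.2% and 9.39% in the spike-in set. It covered 12.9% and 13.0%, and 14.9% and 12.9%, of the *tup1∆*-only ones, and 7.94% to 11.1% of all coding regions. Untagged cells had 0% on the *hda1∆*-only regions in each of 4 libraries and up to 3.58% on the *tup1∆*-only ones. The mean coverage of *tup1∆*-only regions by Hda1-myc was above that of all regions in both sets, and the part of the untagged signal in it was not tested. Counted by region, at least 10% was covered at 23 of the 134 in each spike-in library, and at 953 and 861 of all 6002. Without spike-in it was 22 and 23 of the 134, and 706 and 663 of all.

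Genes long known as Tup1 targets did not all fall into a class. *ANB1*, the hypoxic form of the translation factor eIF5A, was covered at 100% in all 4 mutant libraries and at 0% in wild type, and *GAL3*, a galactose sensor, at 99.6% to 100% and 0%. *SUC2*, invertase, had 39.0% and 44.6% in *hda1∆*, 25.2% and 30.3% in *tup1∆* and none in wild type (adjusted p = 0.142, limma). *PHO5*, a phosphate-repressed acid phosphatase, had more coverage in *hda1∆*, with 100% in both libraries against 61.8% and 52.5% (limma, adjusted p = 0.0299), and *FLO1* had 23.5% and 24.2% against 10.5% and 8% (adjusted p = 0.0502, limma). These 5 genes carried peaks in both mutants. *ENA1*, a sodium pump, had 1.68% and 10.2% in *hda1∆* and none in *tup1∆*. *HXT6*, a glucose transporter, and *STE2*, a pheromone receptor, had no coding peak in any of the 6 libraries, nor did the highly transcribed *TEF1*, *TEF2* and *PMA1* or *STT4*, a lipid kinase gene. On the *HXT6* coding region no library of any antibody had a peak, so its 0% cannot be read as a lack of acetylation. The *STE2* coding region was covered at 100% by Hda1-myc in all 4 libraries, while untagged cells had 56.8% there in spike-in replicate 1 and 0% in their other libraries. *YEF3*, a translation elongation factor, had 8.36% in 1 wild-type library only. *TKL2*, the minor transketolase, had 75.1% and 74.2% against 100% and 75.4%, and *HAP1*, a heme-dependent activator, 12.6% and 12% against 12.8% and 24.6%, and both differed by less than the gap between the *tup1∆* replicates.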

How the data were processed

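Chromatin immunoprecipitation sequencing (ChIP-seq) of acetylated H3 in *hda1∆*, *tup1∆* and wild type was analysed from 1 deposited peak list per library, with no replicates pooled. Peak calling by the authors used MACS2, with a stated cutoff of 0.05 on the q-value, while the largest q-value in the 6 deposited H3 acetylation lists lay between 0.00562 and 0.00987. The submitters' processing notes name FastQC 0.11.5, Bowtie2 2.2.5, Picard 2.6, bedtools 2.26.0, MACS2 2.1.0 and the builds R64 and sacCer3, whereas the study's methods name an older *S. cerevisiae* release, so gene positions were checked by shifting the gene table. Over 32 chromosome sections (a left and a right one per chromosome), the shift with the best match of coverage to genes had a median of −10 bp (−100 to 200 bp), with 27 within 100 bp. Gene-table coordinates are therefore not printed.

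The deposited lists hold peak positions, a fold enrichment over control that the authors' MACS2 run gave as a ratio, a −log10 p-value and −log10 q-value as deposited by the authors, and an integer score that the authors' MACS2 run derived from the q-value. No read counts were used, so depth per library is unknown. Peak positions were turned into the percent of each region covered, for 6002 nuclear protein-coding genes of the RefSeq gene table (R64), and fold enrichment was only ranked within a library. The distance to a chromosome end was taken to base 1 or to the outermost annotated gene end.

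Coverage was tested with limma 3.58.1 (R 4.3.3; lmFit and eBayes, two-sided, Benjamini-Hochberg over all regions of a kind) in the 4 mutant libraries. For regions with identical replicates, the standard error comes from the spread shared across regions. Python 3.11.15 with numpy 2.4.6, pandas 2.3.3, scipy 1.17.1 and matplotlib 3.10.9 served for the rest. On simulated coding regions, 200 changed of 6002, the rule recovered 194 with 16 false calls and limma 189 with 13. The simulated peaks spanned whole coding regions far from other peaks, with an error taken from the *hda1∆* replicates alone. Members here were mostly covered in part (medians of 35.3% and 32.6%), so these rates do not carry over to them. Alternatives were the overlap, the margin, a stricter q-value, equal covered length, shifted gene positions, the promoter window, the replicate block, wild type in the fit, the arcsine scale, no filter, and each library left out.

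The members, gene lists and tests were chosen with earlier results of these data known. Genes named were *HDA1* and *TUP1*, the 10 coding regions and 6 promoters per direction with the largest difference (ties by covered length, then systematic name), genes the study discusses, up to 4 members per list and direction, and textbook Tup1 targets. Others were added after their values were seen. No sequence is shown.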

Additional observations from a re-analysis of the deposited data

Results flagged for a closer look

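In 6 gene groups, the H3 acetylation coverage of every *hda1∆* library was above that of every *tup1∆* library while the H4 acetylation coverage was the other way round in both sets of libraries. The difference between the marks was not tested in any of them. For coding regions, the mean difference, *hda1∆* minus *tup1∆*, was 7.27 points in H3 acetylation for DNA damage genes and −5.14 (spike-in set) and −3.18 points (no spike-in) in H4 acetylation. For osmotic and salt stress genes it was 3.91 against −4.83 and −5.09 points. For meiosis and sporulation genes it was 2.71 against −10.5 and −8.77 points, and for deacetylase and corepressor genes 2.79 against −3.93 and −2.64 points. For promoters, the iron uptake genes had 2.94 points in H3 acetylation against −11.0 and −7.54 points in H4 acetylation, and the phosphate response genes 1.63 against −19.3 and −10.8 points. Over all coding regions the signs were opposite too: H3 acetylation differed by 2.09 points, and H4 acetylation coverage was 38.1% and 38.9% in *hda1∆* against 42.3% and 45.2% in *tup1∆* (spike-in set) and 38.4% and 38.3% against 43.5% and 43.1% (no spike-in). Over all promoters H4 acetylation coverage was also lower in *hda1∆* (47.3% and 48.3%) than in *tup1∆* (60.4% and 63.0%, spike-in set).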

How the results depend on the processing

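Counts are given for *hda1∆* and then *tup1∆*. With at least 50% of the region covered, 30 and 34 coding regions and 32 and 56 promoters had a peak in 1 mutant only, and with the margin of 10 points 460 and 262 coding regions and 264 and 392 promoters. Leaving out 1 library at a time, the counts ranged from 141 to 214 and from 168 to 209 for coding regions and from 111 to 160 and from 203 to 253 for promoters, and the limma counts from 22 to 168, 12 to 157, 109 to 239 and 157 to 330. Counts by the rule could only stay or rise with a library left out, since fewer conditions were asked. In the same runs, the mean coding difference ranged from 0.78 to 3.40 points. The promoter difference ranged from −3.28 to 0.075 points, the sign reversing without *tup1∆* replicate 1. With the gene table moved by 200 bp to higher or lower coordinates, 112 or 111 promoters were *hda1∆*-only. Without promoters that overlap another coding region, 40 were *hda1∆*-only, and limma called 51. Without the filter on equal coverage, limma called 127 coding regions for *hda1∆* and 34 and 72 promoters. In these cases the cause was not tested, apart from the fewer promoters or the larger number of regions tested. At equal covered length, limma called 84 and 191 promoters, and the rule gave 64 and 202.

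With the replicate number as a block (replicate block), limma called 0 regions in each of the 4 counts, with 734 coding regions and 404 promoters at an unadjusted p under 0.05, against 875 and 560 without the block. Deviations of same-numbered libraries correlated at 0.009 for coding regions and −0.023 for promoters. The sources do not say whether equal numbers mark a shared culture or day, and these correlations cannot settle it.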
